A study of Mus musculus with 22 samples.

Results

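Chemokine receptors are G protein-coupled receptors on the cell surface that read gradients of chemokines and set where a T cell goes. Each helper T cell lineage carries its own set: Ccr4 and Ccr8 are typical of type 2 helper (TH2) cells, Cxcr3 of type 1 cells and Ccr6 of type 17 cells, while Ccr9 and Ccr10 direct T cells to the gut and to skin and mucosa. Calcitriol, the active form of vitamin D, is known to induce CCR10 in human T cells. Values are given here for 9 T cell chemokine receptor genes, named as a list (Ccr2, Ccr4, Ccr6, Ccr8, Ccr9, Ccr10, Cxcr3, Cxcr4 and Cxcr6) and found by their Ensembl identifiers among the 49671 genes of the count table, with 14 other chemokine receptor genes beside them.

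The cells were mouse T helper cells polarized in culture towards the TH2 fate and harvested at day 5. They were wild type, per the labels, from Balb/c mice of both sexes, obtained at 6 to 8 weeks of age and kept over 2 generations of breeding on diets of 400, 1000 or 4000 IU vitamin D3 per kg. The 11 calcitriol libraries came from cells given 100 nM calcitriol over the final 24 hours, and the 11 vehicle libraries from cells given 2% ethanol; the labels give no ethanol content for the calcitriol-treated cells. They also name no mouse, sex, diet or culture for any library, so the p-values below rest on variation among libraries that may be partly technical. Replicate numbers were assigned here in series order within each group, and runs of vehicle and calcitriol libraries alternate in that order.

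Library totals ran from 3214171 to 12431051 counts with calcitriol and from 3618784 to 20258430 with vehicle, and their means did not differ detectably (two-sided permutation test, p = 0.976). Cyp24a1, the calcitriol-inactivating hydroxylase, had 2381 counts over the calcitriol and 0 over the vehicle libraries, so the treatment label held in all 22 libraries. The receptor gene Vdr averaged 5.40 ± 4.50 CPM (counts per 1e+06 after TMM normalisation) with calcitriol and 16.1 ± 5.70 CPM with vehicle (SD, n = 11 each). The TH2 factor gene Gata3 stood at 97.2 ± 15.1 CPM with calcitriol and 86.5 ± 9.56 CPM with vehicle, and the summed level of 13 helper T cell genes at 5415 to 6296 CPM with calcitriol and 4657 to 5552 CPM with vehicle. Of these 13 genes 12 were tested as described below. Calls were made for 58.3% of the 12, against 31.5% of all genes tested: 5 higher, Il4ra among them, and 2 lower, Cd4 and Il13. In bulk RNA, fewer cells that carry a receptor and less receptor RNA per cell cannot be told apart.

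The 9 genes lie on 5 chromosomes of build GRCm38, with Ccr4, Ccr8, Ccr9, Cxcr6 and Ccr2 on chromosome 9. Promoter sequences from RefSeq (build GRCm38.p6) were at hand for 8 of the 9 genes, as 9 windows from 250 bases before to 50 after a start site. They were searched on both strands for the 6-base half-sites of the vitamin D receptor (AGGTCA or AGTTCA, and also GGGTCA or else GGTTCA), for 2 half-sites in tandem with 3 bases between, and for the T-box core AGGTGT. A half-site occurred in 1 window, of Ccr6, against 43.7% of 32841 promoter windows, the tandem form in none, against 13 of all windows (0.04%), and the T-box core in none, against 13.7%. The windows of Ccr2 and Cxcr3 are shown since these are the receptors whose levels passed the test described next, in opposite directions. They lie at chr9:124101933-124102232 on the plus strand for Ccr2 and at chrX:101734098-101734397 on the minus strand for Cxcr3, and no capitals appear because no motif was found in these letters.
Ccr2 promoter: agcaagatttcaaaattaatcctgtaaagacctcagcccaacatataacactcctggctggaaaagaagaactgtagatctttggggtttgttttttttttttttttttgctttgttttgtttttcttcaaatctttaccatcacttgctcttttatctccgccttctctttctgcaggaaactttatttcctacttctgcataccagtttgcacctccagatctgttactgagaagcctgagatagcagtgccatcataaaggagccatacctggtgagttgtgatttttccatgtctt
Cxcr3 promoter: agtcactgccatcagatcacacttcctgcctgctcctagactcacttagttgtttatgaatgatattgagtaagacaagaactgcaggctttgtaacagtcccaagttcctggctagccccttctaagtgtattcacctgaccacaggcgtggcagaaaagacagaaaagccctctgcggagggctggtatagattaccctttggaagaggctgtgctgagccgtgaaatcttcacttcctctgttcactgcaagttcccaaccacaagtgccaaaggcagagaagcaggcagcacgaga

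Ccr4, Ccr8 and Cxcr4 made up most of the message of the 9 genes, and none of these was called between the 2 groups of libraries. Ccr4 was called higher in 1 of the alternative fits given below. Ccr2, the receptor for the monocyte chemoattractant Ccl2, rose 2.13-fold, and Cxcr3, the receptor for the interferon-induced ligands Cxcl9, Cxcl10 and Cxcl11, fell to 0.646 of its vehicle level. Cxcr6 did not pass the test. Ccr6, Ccr9 and Ccr10 were at the edge of detection in both groups. Of the 9 genes, 6 passed the filter on low counts, and 1 of these was called higher and 1 lower (edgeR's quasi-likelihood test, adjusted p under 0.05 over 11905 genes). Over all genes tested, 31.5% were called, 16.1% higher and 15.5% lower, so a share of 33.3% of 6 receptors is close to the background. A call with a log2 change of at least 1 in either direction was made for 1 of the 6, Ccr2, and for 3.27% of all genes tested. None of the 6 separated the groups completely, as 4.36% of all genes tested did, 2.77% with every calcitriol library above and 1.59% with every calcitriol library below. The median log2 change of the 6 was -0.07, against -0.01 over all genes tested. With no scaling factors, 31.4% of all calls were higher and 68.6% lower, against 50.9% and 49.1% with TMM scaling; the calls for the receptors were the same in both.

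**Figure D1:**
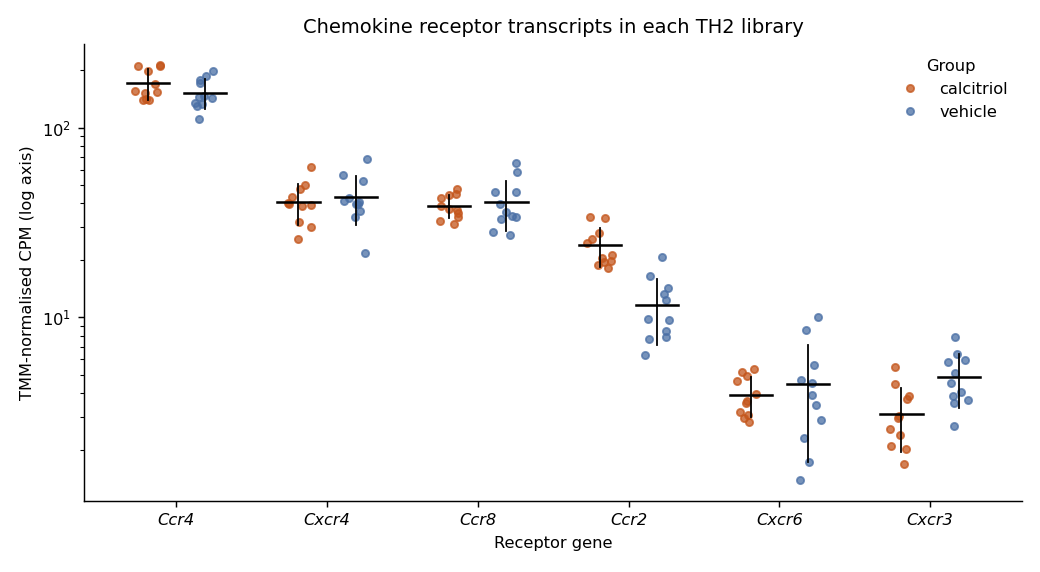
TMM-normalised CPM on a log axis for the 6 chemokine receptor genes that passed the filter; each point is 1 library, with 11 calcitriol libraries left and 11 vehicle libraries right, and bars give mean and SD. Ccr2 shifts upward with calcitriol and Cxcr3 downward, and all 6 genes overlap between the groups.

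Levels were compared between genes per transcript length, as TPM, which scales each library to one fixed total, from the exon length of each gene. Ccr4, the receptor for Ccl17 and Ccl22, stood first at 109 ± 16.7 TPM with calcitriol and 105 ± 17.5 TPM with vehicle (SD, n = 11 each), at percentile 92.5 of tested genes with calcitriol and 91.5 with vehicle. Ccr8, the receptor for Ccl1, followed at 64.7 ± 9.07 TPM with calcitriol and 73.6 ± 20.5 TPM with vehicle. Cxcr4, the receptor for Cxcl12, was at 44.2 ± 9.76 TPM with calcitriol and 50.6 ± 13.4 TPM with vehicle. By exon length, the order Ccr4 over Ccr8 over Cxcr4 held in each of the 22 libraries. Between libraries, the ranges of Ccr8 and Cxcr4 still overlapped in both groups, and those of Ccr4 and Ccr8 in vehicle. These genes took 46.8%, 27.9% and 19.04% of the summed TPM of the 9 genes with calcitriol, and 43.6%, 29.95% and 20.6% with vehicle.

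A large gap separated them from the next genes. With calcitriol, Ccr2 was at 7.01 ± 1.71, Cxcr6 at 3.99 ± 0.882 and Cxcr3 at 3.53 ± 1.24 TPM, and with vehicle Cxcr3 was at 5.97 ± 1.79, Cxcr6 at 4.91 ± 2.91 and Ccr2 at 3.65 ± 1.37 TPM. By mean TPM, Ccr2 ranked 4 with calcitriol and 6 with vehicle. In calcitriol libraries Ccr2 exceeded Cxcr6 in 11 of 11, while Cxcr6 exceeded Cxcr3 in 6 of 11. In vehicle libraries Cxcr3 exceeded Cxcr6 in 8 of 11 and Cxcr6 exceeded Ccr2 in 7 of 11, so these neighbours did not differ beyond their spread. These levels and shares depended on the length used. With the mean length of coding transcripts (a choice made once the values were known), Ccr4 took 60.7% of the summed mean TPM with calcitriol and 57.6% with vehicle. Ccr8 then took 17.6% with calcitriol and 19.6% with vehicle, at 40.7 TPM with calcitriol and 45.8 TPM with vehicle, close to Cxcr4 at 37.2 TPM with calcitriol and 42.03 TPM with vehicle. Cxcr4 then stood above Ccr8 in some libraries, such as vehicle replicate 7 (320 counts over 1354 bases against 220 counts over 1175 bases). The order of the last genes changed too: vehicle Ccr2 stood at 4.24 TPM, above Cxcr3 at 3.72 and Cxcr6 at 3.10 TPM. The annotated exons of Ccr2 cover 6760 bases and its coding transcripts average 3627 bases.

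Among the receptors typical of TH2 cells, Ccr4 (ENSMUSG00000047898, chromosome 9, 114490316 to 114504916) ran from 139 to 214 CPM with a median of 157 CPM in calcitriol libraries, and from 111 to 199 CPM with a median of 145 CPM in vehicle libraries. The groups overlapped, with 3 calcitriol libraries above every vehicle library. Its log2 change was 0.17 ± 0.10 (SE; edgeR, adjusted p = 0.232), with a 95% interval from 0.971-fold to 1.30-fold. With 5 surrogate variables in the fit it passed the threshold at a log2 change of 0.16 (edgeR, adjusted p = 0.00036); over all 36 alternatives the adjusted p ran from there to 1.

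Ccr8 (ENSMUSG00000042262, chromosome 9, 120092114 to 120094906) ran from 31.1 to 47.2 CPM with a median of 37.4 CPM with calcitriol, and from 27.3 to 64.7 CPM with a median of 35.8 CPM with vehicle. The calcitriol values lay inside the vehicle range, whose top was set by vehicle replicates 3 and 4 at 64.7 and 58.2 CPM. The log2 change was -0.07 ± 0.13 (edgeR, adjusted p = 0.747), with a 95% interval of 0.795-fold to 1.15-fold, so a change of 1.5-fold in either direction lies outside it.

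Cxcr4 (ENSMUSG00000045382, chromosome 1, 128588199 to 128592293), which holds lymphocytes in bone marrow and draws them along Cxcl12, ran from 26.0 to 61.9 CPM with a median of 39.4 CPM with calcitriol, and from 21.9 to 68.3 CPM with a median of 40.8 CPM with vehicle. Again the calcitriol values lay inside the vehicle range. The log2 change was -0.07 ± 0.15 (edgeR, adjusted p = 0.761), with a 95% interval of 0.761-fold to 1.19-fold.

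Of the receptors for inflamed tissue, Ccr2 (ENSMUSG00000049103, chromosome 9, 124101950 to 124113557) rose. Calcitriol libraries held 18.1 to 33.8 CPM with a median of 21.3 CPM, and vehicle libraries 6.37 to 20.9 CPM with a median of 9.77 CPM. Of the calcitriol libraries 6 lay above every vehicle library, and 10 of 11 vehicle libraries lay below every calcitriol library; the exception was vehicle replicate 4 at 20.9 CPM. The log2 change was 1.09 ± 0.17 (edgeR, adjusted p = 2.41e-05), with a 95% interval from 1.67-fold to 2.73-fold. The call held in all 36 alternatives, with log2 changes of 1.03 to 1.29.

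Cxcr3 (ENSMUSG00000050232, chromosome X, 101731535 to 101734269) fell. Calcitriol libraries held 1.68 to 5.46 CPM with a median of 2.95 CPM, and vehicle libraries 2.67 to 7.86 CPM with a median of 4.51 CPM. The groups overlapped widely: 5 calcitriol libraries lay below every vehicle library and 4 vehicle libraries above every calcitriol library. The log2 change was -0.63 ± 0.20 (edgeR, adjusted p = 0.0164), with a 95% interval from 0.487-fold to 0.858-fold. Counts were low, 8 to 39 per calcitriol library and 19 to 73 per vehicle library, and counting alone gives an SD of 0.640 CPM with calcitriol and 0.784 CPM with vehicle, where 1.15 CPM and 1.53 CPM were observed. The call was lost without vehicle replicates 3 and 4 together (log2 change -0.46, edgeR adjusted p = 0.0781, chosen after the data were seen) and with libraries that resemble each other summed (-0.64, adjusted p = 0.061). Over the alternatives in which the gene was tested the adjusted p ran from 0.00108 to 0.105.

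Cxcr6 (ENSMUSG00000048521, chromosome 9, 123806475 to 123811760), the receptor for the membrane-bound ligand Cxcl16, ran from 2.82 to 5.33 CPM with a median of 3.64 CPM with calcitriol, and from 1.39 to 10.02 CPM with a median of 3.92 CPM with vehicle. All calcitriol values fell inside the vehicle range, with 3 vehicle libraries above and 3 below every calcitriol library. The log2 change was -0.16 ± 0.26 (edgeR, adjusted p = 0.693) and the 95% interval, 0.615-fold to 1.30-fold, is the widest of the 6. The SD of 0.929 CPM in calcitriol libraries was 1.275 times what counting alone gives, and that of 2.73 CPM in vehicle libraries was 3.65 times. The gene lies inside an intron of Fyco1 on the opposite strand, with no exonic overlap. Fyco1, which encodes an adaptor of autophagosome transport, rose by 0.38 ± 0.07 on the log2 scale.

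The gut and skin homing receptors and Ccr6 were below the filter. Ccr10 (ENSMUSG00000044052, chromosome 11, 101172997 to 101175443), the receptor for Ccl27 and Ccl28, had 2 counts in 1 calcitriol library and 0 counts in all vehicle libraries. Ccr6 (ENSMUSG00000040899, chromosome 17, 8236043 to 8257141), the receptor for Ccl20, had 0 counts with calcitriol and 1 with vehicle. A count of 0 over a group allows up to 3 counts, or 0.0324 CPM with calcitriol and 0.0311 CPM with vehicle, so no fold is given for these genes. Ccr9 (ENSMUSG00000029530, chromosome 9, 123678439 to 123784330), the receptor for Ccl25, had 8 counts in 3 calcitriol and 5 counts in 3 vehicle libraries. The ratio was 1.66, with a 95% interval for counting error of 0.480 to 6.46. Its mean log2 CPM did not differ detectably (two-sided permutation test, p = 0.788). For Ccr9, 1932 exonic bases overlap an annotated gene on the opposite strand, 22 overlap another gene there, and 269 overlap a gene on the same strand. The strand setting of the counting is not given in the sources used here.

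Several receptors ran high or low together in some libraries of both groups, by more in vehicle. Vehicle replicates 3 and 4 lay above the vehicle mean for all 6 tested receptors, by 0.68 and 0.66 on average on the log2 scale, and each was among the top pair for 5 of these genes. Vehicle replicates 7, 8, 9 and 10 lay below the vehicle mean for all 6, and replicate 9 was the lowest library for 5. Calcitriol libraries were closer together, with mean deviations of -0.23 to 0.25. Calcitriol replicates 3 and 4 lay above the calcitriol mean for 5 of the 6, and calcitriol replicates 7, 8 and 9 for 1 of the 6 each. Replicates 3, 4, 7, 8 and 9, which are neighbours in the series order, thus deviated in the same direction in both groups. The mean deviations of replicates 2, 6, 10 and 11 had opposite signs in the groups. Totals were 7240001 and 7320919 counts in vehicle replicates 3 and 4. Vehicle replicates 7, 8, 9 and 10 were each deeper, at 7574162, 10115711, 8174149 and 20258430 counts, the last being the deepest of the 22 libraries. The part of depth in this spread was not tested, nor that of place in the series order. Mouse, sex and diet were not tested either, since the labels do not give them per library.

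**Figure D2:**
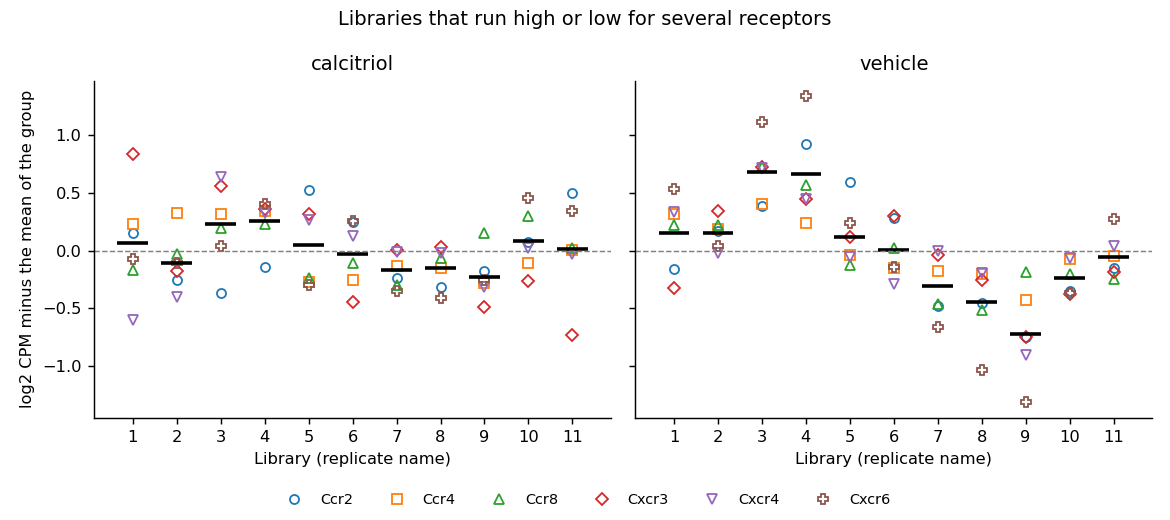
Deviation of each library from the mean of its group in log2 CPM, for the 6 tested receptors (symbols) and their mean (black bars), with calcitriol libraries left and vehicle libraries right. Vehicle replicates 3 and 4 average 0.68 and 0.66 above their group and vehicle replicate 9 averages 0.73 below it.

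Among 14 other chemokine receptor genes 5 passed the filter, of which 3 were called higher and 2 lower, with a median log2 change of 0.67. All 5 were thus called, against 31.5% of all genes tested. Ccr7, which takes naive and central memory T cells into lymph nodes, fell to 63.1 ± 24.3 CPM with calcitriol, against 119 ± 25.4 CPM with vehicle (-0.94 ± 0.18; edgeR adjusted p = 0.000345). Ccr1 and Cxcr1 rose by 1.12 ± 0.23 and 0.97 ± 0.19. Cxcr2 and the atypical receptor Ccrl2, named after their values were seen, changed by 0.67 ± 0.22 and -0.84 ± 0.27, and both calls were lost in several alternatives.

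**Figure D3:**
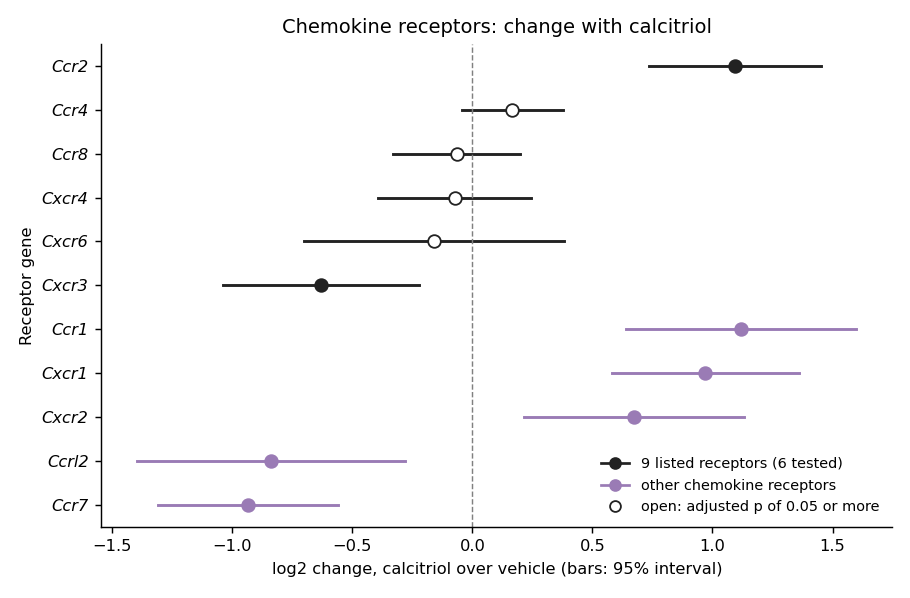
Log2 change of calcitriol over vehicle with 95% intervals for 11 chemokine receptor genes that passed the filter, the listed genes in black and the other family genes in purple, open where the adjusted p was 0.05 or more. Ccr1 and Ccr2 lie above 1, Ccr7 lies at -0.94, and the intervals of Ccr4, Ccr8, Cxcr4 and Cxcr6 cross 0.

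Below the filter, Ccr3, the eotaxin receptor, had 160 counts with calcitriol and 81 with vehicle (ratio 2.05, counting interval 1.56 to 2.72). Ccr1l1, a gene related to Ccr1, had 38 counts with calcitriol and 7 with vehicle (ratio 5.64, counting interval 2.49 to 14.97), and Xcr1 had 2 with calcitriol and 1 with vehicle. Ccr1l1 and Ccr3 start -123.5 and -80 kb from the start of Ccr2 on chromosome 9, and Ccr1 starts at -133.3 kb. Further out on the same side, Fyco1 (-250.1 kb) rose, Cxcr6 (-295.5 kb) was not called and Lztfl1 (-384.3 kb) fell (log2 change -0.20 ± 0.07). Whether position plays a part was not tested.

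Ccr2 and Ccr1 are also genes of monocytes, so markers of such cells were read beside them. The summed level of 13 myeloid markers was 7.61 to 18.7 CPM with calcitriol and 5.10 to 10.3 CPM with vehicle. Of these, Cd68 alone passed the filter. Several defining markers were at or near 0: Csf1r had 1 count with calcitriol and 0 with vehicle, Lyz2 had 0 with calcitriol and 2 with vehicle, S100a8 had 0 with calcitriol and 1 with vehicle, and Fcgr1 and S100a9 had none in any library. The macrophage marker Adgre1 had 50 counts in 11 calcitriol libraries and 15 in 6 vehicle libraries (ratio 3.46, counting interval 1.91 to 6.64), and Itgam had 4 with calcitriol and 0 with vehicle. Cd68 had 707 counts with calcitriol and 544 with vehicle and was not called (log2 change 0.42 ± 0.17, edgeR adjusted p = 0.0541), and Ly6c2, which T cells also express, had 155 with calcitriol and 29 with vehicle. B cell markers summed to 7.40 to 16.8 CPM with calcitriol and 6.14 to 14.03 CPM with vehicle, and natural killer cell markers to at most 0.823 CPM with calcitriol and 0.534 CPM with vehicle. Dendritic cell markers summed to 95.1 to 150.6 CPM with calcitriol and 104 to 155 CPM with vehicle. The class II gene H2-Ab1, the highest of this list, averaged 96.9 CPM with calcitriol and 89.0 CPM with vehicle and was not called. Others of the list were far lower and below the filter. H2-Aa, also of class II, averaged 1.49 CPM with calcitriol and 1.03 CPM with vehicle. Cd74 averaged 0.511 CPM with calcitriol and 0.524 CPM with vehicle, and Clec9a had no count. Of the 4 dendritic markers tested, 2 (50%) were called, both lower, against 31.5% of all genes tested. Bst2 averaged 20.9 CPM with calcitriol and 33.2 CPM with vehicle (log2 change -0.68 ± 0.10). Zbtb46 averaged 2.59 CPM with calcitriol and 4.68 CPM with vehicle (-0.90 ± 0.16). CD8 T cell genes summed to 2.52 to 9.53 CPM with calcitriol and 3.87 to 8.36 CPM with vehicle, and regulatory T cell genes to 5.53 to 9.98 CPM with calcitriol and 7.35 to 14.9 CPM with vehicle. Mast cell and basophil genes summed to at most 5.60 CPM with calcitriol and 6.14 CPM with vehicle, and red cell genes to at most 0.165 CPM with calcitriol and 0.137 CPM with vehicle. The red cell list includes globin genes, whose transcripts the library kit depletes, so its low sum cannot show that red cells were absent. The part of such cells in the receptor changes was not tested beyond these values.

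Few ligands of the 9 receptors were detected above the filter. Of 17 ligand genes 3 were tested, 0 rose and 1 fell, and 5 had no count. The share called was 33.3%, against 31.5% of all genes tested, and the median log2 change of the 3 was -0.14. The call was Mif, an inflammatory cytokine that also binds Cxcr4, at 464 ± 56.3 CPM with calcitriol and 542 ± 51.6 CPM with vehicle (log2 change -0.23 ± 0.06). Ccl22, a ligand of Ccr4, averaged 2.45 ± 1.28 CPM with calcitriol and 2.75 ± 1.83 CPM with vehicle and was not called. Ccl1, the ligand of Ccr8, had 1 count in 1 calcitriol library and 22 counts in 9 vehicle libraries (ratio 0.0472, counting interval 0.001145 to 0.292).

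Of 25 receptors for other attractants and for tissue exit, 12 were tested, 5 rose and 2 fell, with a median log2 change of 0.20. The share called was 58.3%, against 31.5% of all genes tested. Gpr183, which guides lymphocytes along oxysterols, rose to 64.0 ± 13.01 CPM with calcitriol, against 22.1 ± 5.11 CPM with vehicle (1.54 ± 0.13). The leukotriene B4 receptor Ltb4r1 rose to 39.2 ± 5.29 CPM with calcitriol, against 14.5 ± 4.55 CPM with vehicle (1.403 ± 0.14). Gpr18 and the sphingosine phosphate receptor S1pr4 rose by 0.68 ± 0.12 and 0.32 ± 0.06. The 2 that fell, Ptger4 and S1pr2, changed by -0.33 ± 0.08 and -0.19 ± 0.07. Below the filter, Gpr34 had 48 counts with calcitriol and 206 with vehicle (ratio 0.242, counting interval 0.173 to 0.333). Ptger4, S1pr2 and Gpr34 were named after their values were seen. S1pr1, the receptor for exit from lymph nodes, averaged 28.9 ± 13.3 CPM with calcitriol and 39.7 ± 25.9 CPM with vehicle and was not called (adjusted p = 0.325 by edgeR; named after its values were seen).

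Downstream of the receptors, 15 of 44 tested signalling genes rose and 10 fell, with a median log2 change of 0.05. This is a share of 56.8% called, against 31.5% of all genes tested. Rgs1, which shortens chemokine signals by speeding GTP hydrolysis on the G protein, rose by 0.82 ± 0.09. Pik3cg, the catalytic subunit of the phosphoinositide 3-kinase that G proteins activate, rose by 1.11 ± 0.13. Tiam1, an activator of the small GTPase Rac1, rose by 0.64 ± 0.07, and the atypical GTPase gene Rhoh by 0.51 ± 0.08. Among the 10 that fell, Pik3r5, for a regulatory subunit of the same kinase as Pik3cg, changed by -0.61 ± 0.10. The G protein subunit gene Gnb4 changed by -0.53 ± 0.09, and both were named after their values were seen. The G protein subunit gene Gnai2, through which chemokine receptors signal in lymphocytes, averaged 299.6 ± 22.2 CPM with calcitriol and 298.9 ± 18.05 CPM with vehicle; it was named after its values were seen.

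Of 9 tested genes for receptor processing and turnover, 3 rose and 2 fell, with a median log2 change of -0.07. Calls were made for 55.6% of them, against 31.5% of all genes tested. Tpst1 and Tpst2, the enzymes that sulfate the outer tails of chemokine receptors, rose by 0.50 ± 0.13 and 0.36 ± 0.08. Nsf, a vesicle fusion ATPase, and Wipf1, an actin regulator, changed by -0.37 ± 0.04 and -0.55 ± 0.08. All 4 genes passed at an adjusted p of at most 0.00339 (edgeR), and the calls for Tpst1 and Tpst2 were lost with a fold threshold of 1.2 (adjusted p = 0.0933 and 0.25).

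Of 31 tested transcription factors of helper lineages and homing, 12 rose and 11 fell, with a median log2 change of 0.13. This is a share of 74.2% called, against 31.5% of all genes tested. Tbx21, known as an activator of Cxcr3, fell to 3.39 ± 0.522 CPM with calcitriol, against 8.12 ± 1.27 CPM with vehicle (-1.26 ± 0.11), and its highest calcitriol library, at 4.28 CPM, lay below its lowest vehicle library, at 5.98 CPM. Maf and Ets1 rose by 0.88 ± 0.07 and 0.68 ± 0.06, and Bhlhe40 changed by -1.51 ± 0.12. Whether these changes and those of the receptors are connected was not tested.

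The genes most like Ccr2 over the 22 libraries, by the root mean square difference of mean-centred log2 CPM, were the glycosyltransferase gene Gcnt1 (0.31) and the immediate early gene Ier5 (0.32), against a median of 0.72 over 10493 tested genes with an established symbol. For Cxcr3 they were Ndrg4 (0.33) and Rabgap1l (0.33), against a median of 0.58. Gcnt1 and Ier5 changed by 1.12 ± 0.12 and 0.96 ± 0.06, and Ndrg4 and Rabgap1l by -0.53 ± 0.14 and -0.66 ± 0.09, and these differences between treatments enter the measure of likeness.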

How the data were processed

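Raw counts per Ensembl gene, 1 column for each of 22 libraries, were used as the authors deposited them; no column was left out. Per the labels' protocols, libraries came from a stranded total RNA kit that depletes globin transcripts. The submitters' processing notes name STAR (2.7.10a), HTSeq (0.13.5) and build GRCm38. For the strand setting and the annotation release, nothing is given in the sources used here. Symbols, positions and lengths came from GENCODE M21 on the same build, and 345 of 49671 identifiers had none.

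Genes were filtered with filterByExpr (11905 kept), scaled by TMM and tested with edgeR 4.0.16 (R 4.3.3; quasi-likelihood F test, robust, no covariate) with Benjamini-Hochberg adjustment over all genes tested, at a threshold of 0.05. Fold changes are log2 of calcitriol over vehicle ± SE, and 95% intervals use the fit's degrees of freedom. Permutation tests used 100000 resamples; log2 CPM had a prior count of 2. Count intervals and the floor of 3 counts cover counting error only. The fit was tested on simulated counts.

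The receptors, lists and tests were chosen with earlier results of these data known. Named genes were the 9 receptors, Vdr, Cyp24a1, Gata3, up to 4 called genes with the smallest p in each list, and the 2 nearest genes of each called receptor. Alternatives used DESeq2 1.42.0, limma 3.58.1 (voom), sva 3.50.0, other scaling and filters, and fewer libraries. A further gene is not reported here.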

Additional observations from a re-analysis of the deposited data

How the results depend on the processing

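The call for Ccr2 kept its direction and its side of the threshold in all 36 alternatives, of which 22 left out 1 library each (log2 change 1.03 to 1.22). The call for Cxcr3 held whenever a single library was left out (-0.74 to -0.54) and was lost with a fold threshold of 1.2 (-0.63, edgeR adjusted p = 0.105), with the 7 sets of best correlated libraries in each group summed (-0.64, adjusted p = 0.061) and without vehicle replicates 3 and 4 together (-0.46, adjusted p = 0.0781; chosen after seeing the data), so that 0 receptors were then called lower. At a mean of at least 5 CPM the gene was not tested, and 0 were called lower as well. Ccr4 was called higher with 5 surrogate variables (0.16), which made 2 receptors higher. The cause was not tested. Log2 changes of Ccr8, Cxcr4 and Cxcr6 stayed uncalled and took either sign. Over all genes, 631 were called higher and 535 lower with the fold threshold, 2878 lower with no scaling factors and 2820 lower with surrogate variables, against 1911 higher and 1844 lower. Of 28 other named genes, 20 kept their call, or its absence, throughout; Mif, S1pr4, Tpst1, Tpst2 and Ndrg4 lost theirs with the fold threshold alone, Cxcr2 and Ccrl2 in several settings, and Gata3 gained one in 2. The labels name no pairs and number no replicates, so no paired analysis was run. The alternating order of the series was not used as a block in any fit. Counts of 0 to 5 per library leave Ccr6, Ccr9 and Ccr10 at the limit of depth.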
